A study of Homo sapiens with 4 samples.

Results

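Narrow autosomal peaks from 2 chromatin immunoprecipitation sequencing (ChIP-seq) libraries of the human cell line H69 were compared, both made against the protein YAP but with different antibodies. Members were selected by position and width alone: every peak on chromosomes 1 to 22 with a width below 1000 bp was taken, whatever its score. This gave 2071 of the 2471 peaks of the Santa Cruz antibody and 9214 of the 10118 peaks of the antibody called Avruch. Together they are 11285 of the 61551 peaks in the 3 lists of the series. A peak was called shared where it overlapped a member of the other list by 1 bp or more, and single otherwise.

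All libraries came from H69 cells fixed with 1% formaldehyde for 10 min and sonicated to fragments of about 250 bp. The labels give no tissue of origin, treatment, genotype change or time for these cells. Besides the YAP libraries there is 1 library made with an antibody against TEAD1 and 1 made with an unrelated IgG, of which the latter was not analysed here. One YAP antibody is labelled with the supplier name Santa Cruz and the other only as YAP, and the design text supplies the name Avruch. The part of YAP that each antibody recognises is not given in the sources used here. With 1 library per antibody there are no replicates, so nothing below is tested, and antibody and library cannot be told apart.

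YAP is a transcriptional coactivator that has no DNA-binding domain of its own. It reaches chromatin through partner proteins, above all the TEAD family, whose members bind a short DNA motif next to many genes of growth and of the cytoskeleton. The Hippo kinases phosphorylate YAP and hold it in the cytoplasm, so the amount of YAP on chromatin depends on their activity. Because YAP is tied to DNA indirectly, its ChIP-seq signal is often weak, and a second antibody is a usual way to ask which sites do not depend on a single reagent. TEAD1 binds DNA directly and was mapped here with an antibody of its own, which the choice of members did not use.

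Few narrow YAP sites were found with both antibodies. Of the Santa Cruz members, 370 of 2071 overlapped an Avruch member, which is 17.9% (Wilson 95% interval 16.3 to 19.6). Of the Avruch members, 398 of 9214 did so, which is 4.32% (3.92 to 4.75). The other 1701 Santa Cruz and 8816 Avruch members were single. These intervals cover counting error only, and they are too narrow where many peaks lie in the same locus. The lists differ in length, so the lower Avruch share is bounded by the shorter Santa Cruz list. Between the 500 highest-scoring members of each list the shares were 18.2% for Santa Cruz (15.1 to 21.8) and 18.6% for Avruch (15.4 to 22.2). With lists of equal length both shares count nearly the same overlaps, so their likeness is built in. Among the 50 highest-scoring members of each list, 7 overlapped one of the 50 highest of the other list. Against all members of the other list, 36 of these 50 Santa Cruz peaks and 18 of these 50 Avruch peaks were shared.

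The members left out were of different kinds. The Santa Cruz list had 286 peaks on other chromosomes and contigs and 114 autosomal peaks of 1000 bp or more, and the Avruch list had 772 and 132. The width limit separated neighbours of similar kind. Just below it in the Santa Cruz list lay peaks of 994, 992 and 984 bp with scores of 69.87, 56.19 and 175.79, and just above it peaks of 1003, 1004 and 1008 bp with scores of 61.87, 71.42 and 452.06. In the Avruch list the peaks just below were 999, 996 and 981 bp wide with scores of 417.48, 276.69 and 211.96. Those just above were 1002, 1007 and 1015 bp wide with scores of 176.65, 389.17 and 260.03. One place on chromosome 21 was split by the limit: the Avruch peak from 9825438 to 9826436 is a member, while the Santa Cruz peak from 9825438 to 9826445 is not. In all, 42 single Santa Cruz members and 89 single Avruch members touched only a wide peak of the other list. Counting those as well, 19.9% of Santa Cruz and 5.29% of Avruch members touched some peak of the other antibody.

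Shared peaks mostly lay closely on top of each other. The 370 Santa Cruz and 398 Avruch peaks formed 417 overlapping pairs. The median distance between the centres of a pair was 83 bp, with quartiles of 28 and 169 bp and a maximum of 725 bp. In 162 pairs (38.8%) the narrower peak lay wholly within the wider one. Most shared peaks had a single partner: 328 Santa Cruz peaks met 1 Avruch peak, 37 met 2 and 5 met 3. Shared peaks were also wider than single ones. The median width was 331 bp against 159 bp in the Santa Cruz list and 291 bp against 148 bp in the Avruch list, and a wider peak overlaps others more easily.

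A large part of the sharing lay near wide peaks or long peak-free stretches, in regions called repeat-like here. No repeat annotation was used, so such a region need not hold repeats, and repeats may lie outside them. Repeat-like regions were drawn from the 3 peak lists: the surroundings of any peak at least 1000 bp wide (50 kb to each side) and of peak-free stretches of at least 2.5 Mb (2 Mb to each side). On the autosomes they formed 166 regions of 186.1 Mb in total, peak-free stretches included. They held 278 of the 370 shared Santa Cruz peaks (75.1%) but 17.7% of the single ones. For Avruch they held 304 of 398 shared peaks (76.4%) and 14.2% of the single ones. Wide YAP peaks helped to draw these regions, so this contrast is partly built in. Inside them 48.0% of Santa Cruz members were shared (44.0 to 52.1), and outside them 92 of 1492 were, or 6.17% (5.05 to 7.50). For Avruch the shares were 19.6% inside (17.7 to 21.6) and 94 of 7662 outside, or 1.23% (1.00 to 1.50). Outside, the centres of a pair were closer, with a median of 32 bp against 105 bp inside, and 83.2% of the 95 outside pairs lay within 100 bp.

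Counted by locus, the split of the sharing between the 2 kinds of region was less uneven than by peak. Pairs up to 200 kb apart were joined, which left 139 loci, and 92 of them held 1 pair. No pair lay in a repeat-like region at 74 loci, every pair did at 63 (45.3%), and 2 loci held both kinds. Of all members, 28.0% of Santa Cruz and 16.8% of Avruch peaks lay in repeat-like regions. Those are shares of peaks that were not joined, so they are not a matching background for the loci. Joining also merges clustered pairs by construction. The 10 loci with the most shared Santa Cruz peaks held 169 of the 370 (45.7%) and 190 of the 398 shared Avruch peaks (47.7%). With these 10 loci left out, the shared portion was 10.9% of Santa Cruz members (9.58 to 12.4) and 2.38% of Avruch members (2.08 to 2.73).

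The densest shared locus lay on chromosome 19 (hg19, 36761601 to 36797704). Within 36.1 kb it held 39 Santa Cruz and 47 Avruch members, of which 33 and 36 were shared, and all of these overlapped TEAD1 peaks. Another stretch of chromosome 19 (37763097 to 37793928) held 23 Santa Cruz and 47 Avruch members, 20 and 24 of them shared. A further 3 loci on this chromosome, which begin at 8853298, 48407275 and 50595112, held 11, 6 and 9 shared Santa Cruz peaks. Chromosome 19 thus carried 86 of the 370 shared Santa Cruz peaks (23.2%), although it held 8.06% of that antibody's members. Outside repeat-like regions its shared portion was 6.15% for Santa Cruz and 1.32% for Avruch, close to the 6.17% and 1.23% of all autosomes together. With chromosome 19 left out entirely, 14.9% of Santa Cruz members were shared (13.4 to 16.6) and 3.46% of Avruch members (3.10 to 3.87).

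The balance of the antibodies differed from locus to locus. On chromosome 1 from 2591380 to 2693830 the lists were nearly equal, with 31 Santa Cruz and 34 Avruch members and 17 shared in each. On chromosome 1 from 228752256 to 228782534 there were 28 and 29 members, 14 and 17 of them shared, and TEAD1 had 2 peaks of 1000 bp or more there. On chromosome 2 from 87623689 to 87730931 Santa Cruz had slightly more members than Avruch, 18 against 16. At some other loci Avruch members were several times as many. On chromosome 1 from 121354654 to 121471969 there were 21 Santa Cruz members and 101 Avruch members, and TEAD1 had no peak at all. On chromosome 4 from 9214790 to 9358297 there were 8 Santa Cruz and 95 Avruch members, with 6 and 8 shared and none of these overlapping TEAD1. At the latter locus no pair lay in a repeat-like region.

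**Figure D1:**
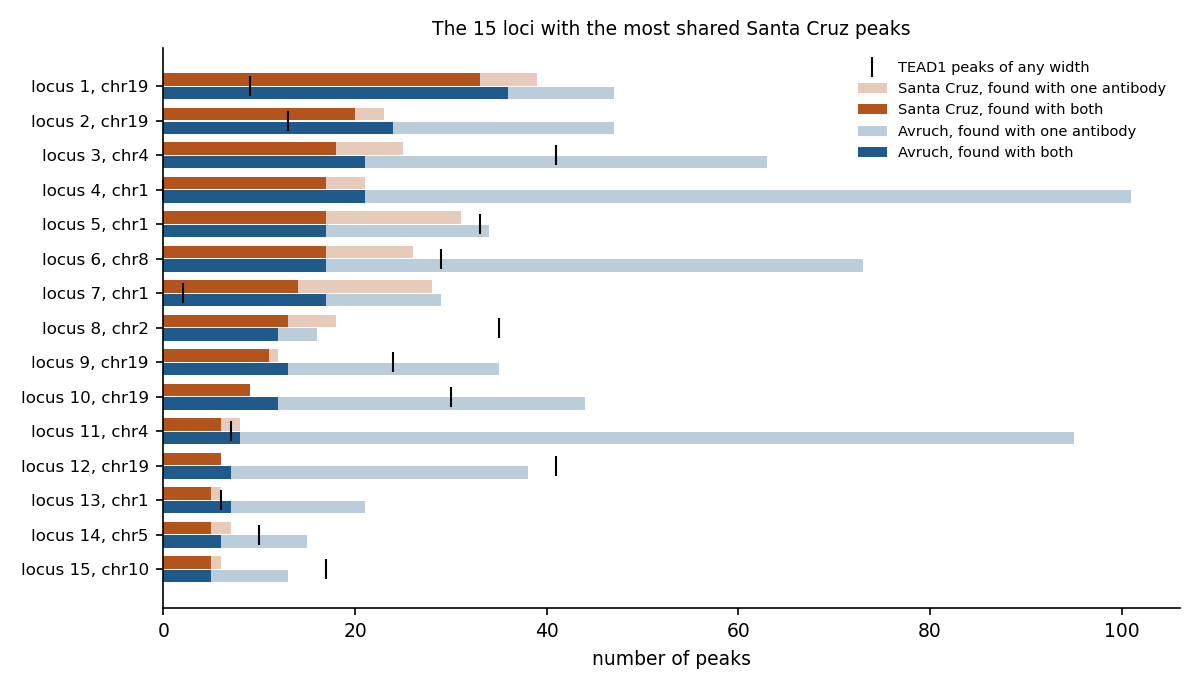
Number of narrow peaks (x axis) at the 15 loci with the most shared Santa Cruz peaks (y axis, named by chromosome), with shared peaks in full colour, the remaining members pale, and TEAD1 peaks of any width as a black tick. The first locus has 33 of 39 Santa Cruz and 36 of 47 Avruch members shared, while the fourth has 101 Avruch members and its TEAD1 tick at 0.

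Outside repeat-like regions, shared sites were mostly solitary and spread over 19 of the 22 autosomes. Of the 139 loci, 66 were a lone pair in such surroundings. The pair with the highest mean rank lay on chromosome 1 (Santa Cruz 11889529 to 11889760, score 281.96, rank 3 of 2071). Its Avruch partner (11889587 to 11889758, score 206.22, rank 64 of 9214) lay wholly within it, and a TEAD1 peak with a score of 122.04 covered the Avruch peak whole and the Santa Cruz peak in part. Scores are the peak caller's own values as deposited, have no stated unit, and are ranked only within a list. The next pair, on chromosome 3 (Santa Cruz 303602 to 304249, score 201.20, and Avruch 303700 to 304202, score 184.83), had no TEAD1 peak.

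Chromosome 5 gave several of the leading shared sites. Between 177952047 and 178012786 it held 3 pairs at 2 sites, all with TEAD1. At the first of them a single Santa Cruz peak (177952380 to 177952673, score 102.87) bridged neighbouring Avruch peaks with scores of 187.86 and 197.43. At the other, peaks of the same width, 288 bp, scored 119.88 in the Santa Cruz list and 103.14 in the Avruch list. Elsewhere on the chromosome, a pair at 143539400 to 143539595 carried a Santa Cruz score of 116.39 and an Avruch score of 78.89, again with a TEAD1 peak.

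Other leading pairs were narrow and nearly coincident. On chromosome 9 the Santa Cruz peak from 98363573 to 98363725 (score 77.41) and the Avruch peak from 98363577 to 98363737 (score 129.79) had centres 8 bp apart. On chromosome 10 the peaks from 130262616 to 130262896 (score 73.46) and from 130262629 to 130262894 (score 111.41) had centres 5.5 bp apart and lay on a TEAD1 peak with a score of 221.86. On chromosome 11 the peaks from 38358543 to 38358658 and from 38358561 to 38358683 had nearly the same standing in their lists, at percentiles 94.0 and 93.1. Of the 20 leading pairs outside repeat-like regions, 6 lay in dense windows, which are 200 kb with more than 5 peaks of a YAP list. A TEAD1 peak was present at 65 of all 95 pairs outside repeat-like regions and at 15 of the 20. The 5 without were the chromosome 3 pair, pairs on chromosomes 9 (69710604 to 69711456) and 13 (97340231 to 97340449), and 2 pairs of the chromosome 4 locus above. The genes at these positions were not analysed here.

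The leading pairs inside repeat-like regions were picked by their ranks in both YAP lists, so their high YAP scores are built in. Their order did not use TEAD1, though wide TEAD1 peaks helped to draw the regions. On chromosome 21 the Santa Cruz peak from 9826690 to 9827652 (score 204.36, rank 5) and the Avruch peak from 9826652 to 9827581 (score 400.71, rank 4) lay on a TEAD1 peak with a score of 582.04. A pair near the start of chromosome 18 (Santa Cruz 112077 to 112534, score 265.45, and Avruch 112142 to 112544, score 206.73) lay on a TEAD1 peak with a score of 615.08. The pair on chromosome 2 (242950287 to 242951067) scored 163.03 with Santa Cruz and 327.19 with Avruch, on a TEAD1 peak with a score of 1750.31. All 6 leading pairs of this kind overlapped TEAD1, as did 262 of all 322 pairs inside repeat-like regions.

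Sites found with both antibodies coincided with TEAD1 far more often than sites found with a single antibody. Of all Santa Cruz members, 28.1% overlapped a TEAD1 peak, and of all Avruch members 18.4%, which is the background for the counts that follow. Among shared Santa Cruz peaks the share was 286 of 370, or 77.3% (72.8 to 81.3), against 296 of 1701, or 17.4% (15.7 to 19.3), among single ones. Among shared Avruch peaks it was 306 of 398, or 76.9% (72.5 to 80.8), against 1385 of 8816, or 15.7% (15.0 to 16.5). The difference was not present at every width. Among Santa Cruz members of 500 bp or more, shared peaks overlapped TEAD1 less often than single ones. The intervals there overlap (57.1 to 75.1% for shared and 61.2 to 85.1% for single peaks). Among narrower Santa Cruz members, and among Avruch members of 500 bp or more, shared peaks did so more often. The size of the difference also depended on the overlap rule. Where every overlap, with the other antibody and with TEAD1, had to span 50% of each peak, the shares were 19.8% for shared and 5.13% for single Santa Cruz peaks, and 19.5% and 5.17% for Avruch. The shared peaks of both lists are largely the same places, so these are not independent counts.

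The difference was present outside repeat-like regions as well. There the background was 13.9% for Santa Cruz and 12.7% for Avruch. Shared Santa Cruz peaks overlapped TEAD1 in 64 of 92 cases (69.6%, 59.5 to 78.0) and single ones in 144 of 1400 (10.3%, 8.80 to 12.0). Shared Avruch peaks did so in 64 of 94 cases (68.1%, 58.1 to 76.6) and single ones in 906 of 7568 (12.0%, 11.3 to 12.7). By locus, 53 of the 74 loci with no pair in a repeat-like region had a shared peak on TEAD1, as did 47 of the 65 other loci. No share by locus is given for single peaks. The sources used here state neither the sequencing depth nor the control library behind each list, and their part in the coincidence was not tested.

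**Figure D2:**
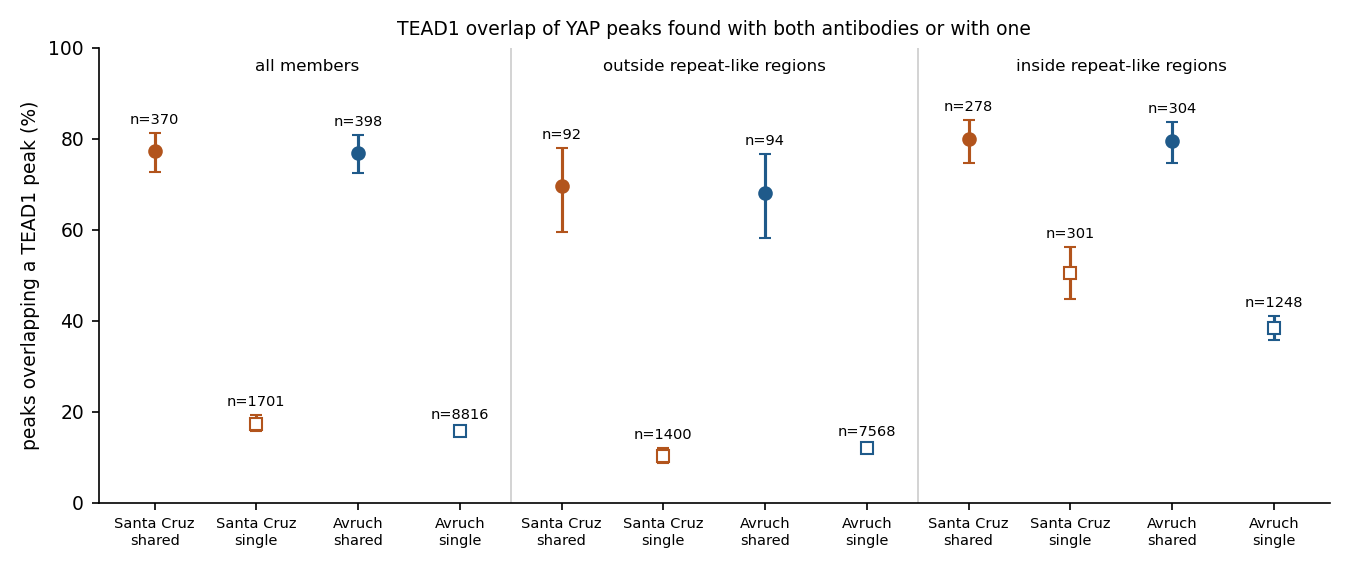
Percent of YAP peaks that overlap a TEAD1 peak (y axis) for shared peaks (filled circles) and single peaks (open squares) of each antibody, over all members and outside or inside repeat-like regions, with Wilson 95% intervals and the number of peaks. Outside repeat-like regions shared peaks stand at 69.6% and 68.1% and single peaks at 10.3% and 12.0%.

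Shared peaks outside repeat-like regions also overlapped TEAD1 more often than single ones among the narrowest and among the low-scoring peaks. Among Santa Cruz peaks there below 150 bp, 18 of 22 shared peaks overlapped TEAD1 (81.8%, 61.5 to 92.7), against 37 of 395 single ones (9.37%). Among Avruch peaks of that width the counts were 24 of 34 (70.6%, 53.8 to 83.2) and 496 of 4487 (11.1%). Weak peaks showed the same order. In the lower 50% of the Avruch scores, 21 of 25 shared peaks outside repeat-like regions overlapped TEAD1 (84.0%, 65.3 to 93.6), against 400 of 4000 single ones (10.0%). In the lower 50% of the Santa Cruz scores the counts were 20 of 34 (58.8%, 42.2 to 73.6) and 61 of 794 (7.68%). In the top 10% of the Santa Cruz scores the counts were 14 of 18 shared peaks (77.8%, 54.8 to 91.0) and 15 of 37 single ones (40.5%, 26.3 to 56.5), and these intervals overlap. In the top 10% of the Avruch scores they were 22 of 33 (66.7%, 49.6 to 80.2) and 111 of 432 (25.7%, 21.8 to 30.0), which do not. Equal windows of 200 bp around every centre, TEAD1 included, lowered the overlap of shared peaks to 41.0% for Santa Cruz and 38.4% for Avruch over all regions, against 11.6% and 11.8% for single peaks.

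Inside repeat-like regions most of the coincidence was with wide TEAD1 peaks, which had helped to draw these regions. There, 58.3% of shared Santa Cruz peaks touched only TEAD1 peaks of 1000 bp or more, against 32.2% of single ones. Counting TEAD1 peaks below 1000 bp alone, the shares were 21.6% for shared (17.2 to 26.8) and 18.3% for single Santa Cruz peaks (14.3 to 23.0), and 20.4% (16.2 to 25.3) and 14.1% (12.3 to 16.1) for Avruch. Peaks that touched only wide TEAD1 peaks stay in these totals, and they were more frequent among shared peaks. The narrow shares therefore cannot show whether the difference is absent at narrow TEAD1 peaks. Outside these regions every TEAD1 peak is narrow by their construction, so the 69.6% given above rests on narrow TEAD1 peaks.

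The TEAD1 peaks beneath shared YAP sites also ranked higher in their own list. Ranks were taken among narrow autosomal TEAD1 peaks, as percentiles from 0 for the lowest to 100 for the highest score. Outside repeat-like regions the 63 TEAD1 peaks under shared Santa Cruz peaks had a median percentile of 84.6 (order-statistic 95% interval 79.7 to 88.0). The 144 under single Santa Cruz peaks had 66.8 (56.2 to 74.6), and the 904 under single Avruch peaks had 58.5 (55.6 to 61.4). In the top 10% of TEAD1 scores lay 19 of the 63 (30.2%), 27 of the 144 (18.8%) and 59 of the 904 (6.53%). Inside repeat-like regions the median was 89.0 (84.5 to 93.3) under shared and 82.1 (63.2 to 87.4) under single Santa Cruz peaks. These intervals overlap. Under Avruch peaks there the medians were 89.5 (85.3 to 93.6) for shared and 77.6 (72.0 to 82.5) for single peaks.

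Shared peaks ranked high within each YAP list. The median score percentile of shared Santa Cruz peaks was 80.2 (75.6 to 83.7) and of single ones 45.6 (43.0 to 47.4). For Avruch the medians were 89.6 (87.3 to 91.7) and 48.8 (47.8 to 49.8). Sharing was concentrated at the top of the lists. Scores were split into 10 deciles, the tenth being the highest. Shared peaks made up 58.0% of the tenth decile of Santa Cruz scores (51.2 to 64.5), 31.9% of the ninth and 19.3% of the eighth, and between 6.80% and 11.6% in each of the other deciles. In the Avruch list they made up 21.1% of the tenth decile (18.6 to 23.8), 5.93% of the ninth, and at most 3.48% of each decile below.

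Outside repeat-like regions only the highest decile stood apart. When scores were ranked anew there, 31 of 149 Santa Cruz peaks in the highest decile were shared (20.8%, 15.1 to 28.0), against 11 of 149 in the ninth (7.38%, 4.17 to 12.7). For Avruch the counts were 42 of 766 (5.48%, 4.08 to 7.33) and 11 of 768 (1.43%, 0.802 to 2.55). Inside, sharing was spread over more ranks. It was at least 63.8% in each of the 4 highest deciles of Santa Cruz scores, and between 27.6% and 35.1% in each of the 5 lowest. Shared peaks were thus present at every rank, and 99 of the 370 Santa Cruz ones lay in the lower 50% of their list.

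**Figure D3:**
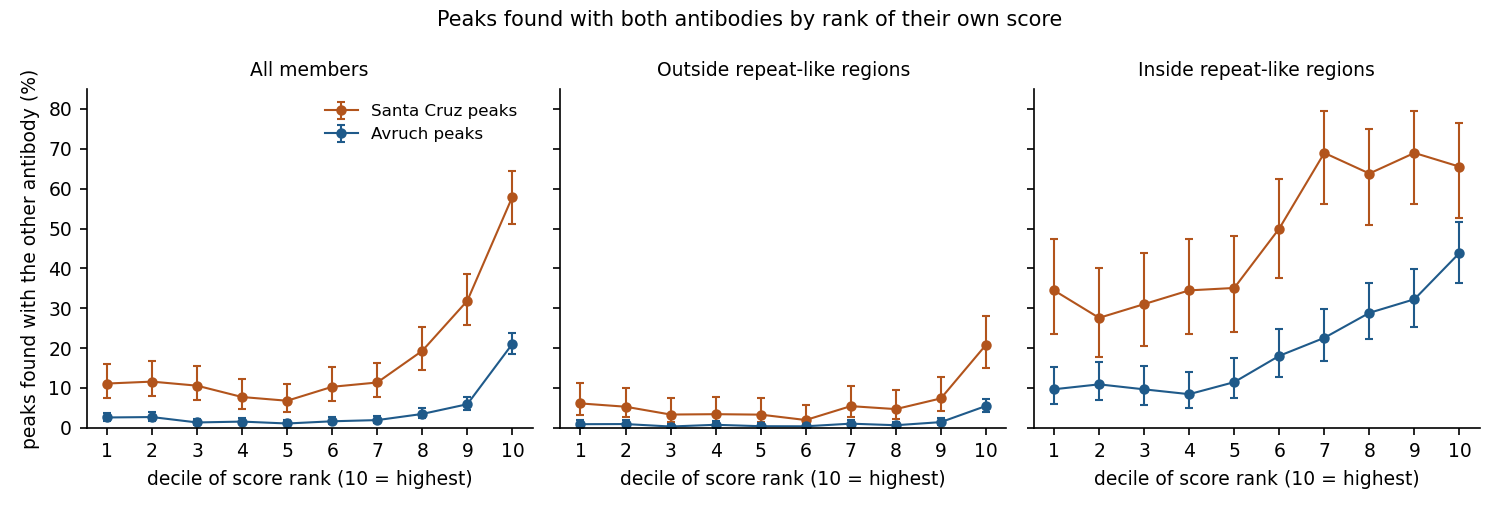
Percent of peaks found with the other antibody (y axis) in each decile of the antibody's own scores (x axis, 10 is highest), over all members and outside or inside repeat-like regions, with Wilson 95% intervals. Over all members the highest decile reaches 58.0% for Santa Cruz and 21.1% for Avruch, and outside repeat-like regions 20.8% and 5.48%.

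Within a pair, the ranks given by the antibodies were only weakly related. Across the 95 pairs outside repeat-like regions, Spearman's rho between the score percentiles was 0.13 and Pearson's r was 0.06. Across the 322 pairs inside, they were 0.11 and 0.07. These values are descriptions: pairs of a locus share their surroundings, and some peaks enter more than 1 pair. Both peaks lay in the top 10% of their lists in 87 of the 417 pairs, of which 74 lay inside repeat-like regions, and both in the lower 50% in 24. Discordant pairs were found in both directions. In 37 pairs the Avruch peak was in the highest quartile and the Santa Cruz peak in the lowest quartile, and in 26 the reverse held.

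**Figure D4:**
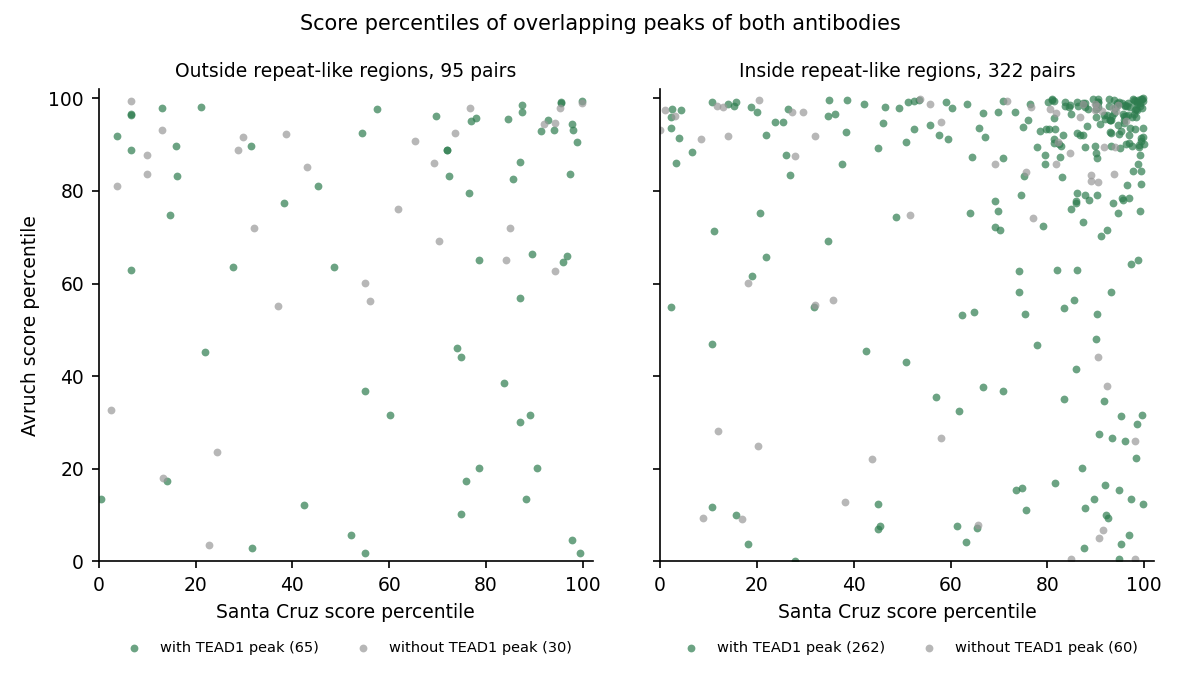
Score percentile of the Santa Cruz peak (x axis) against that of the overlapping Avruch peak (y axis), 1 point per pair, outside (left) and inside (right) repeat-like regions, coloured by whether either peak overlaps TEAD1. Points fill much of the left panel, with 65 of 95 pairs on TEAD1, and gather in the upper right corner of the right panel, where 74 pairs are in the top 10% of both lists.

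Peaks of a single antibody mostly lay far from any member of the other list. Outside repeat-like regions the median gap from a single Santa Cruz peak to the nearest Avruch member was 87280 bp, with quartiles of 26907 and 209692 bp. From a single Avruch peak to the nearest Santa Cruz member it was 480094 bp, with quartiles of 142770 and 1191690 bp. The greater Avruch gap goes with the shorter Santa Cruz list, and the gaps of the 2 lists are not compared for that reason. Near misses were a small part of the single peaks there. Within 1 kb of the other list lay 36 of 1400 single Santa Cruz peaks (2.57%, 1.86 to 3.54) and 62 of 7568 single Avruch peaks (0.819%, 0.640 to 1.05). Beside the 92 shared Santa Cruz and 94 shared Avruch peaks outside these regions, however, such near misses were not rare. Inside them, 35.5% of single Santa Cruz peaks (30.4 to 41.1) and 22.3% of single Avruch peaks (20.1 to 24.7) lay within 1 kb.

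Near misses outside repeat-like regions were intermediate in their overlap with TEAD1, though on few peaks. Single Santa Cruz peaks up to 500 bp from an Avruch member overlapped TEAD1 in 7 of 26 cases (26.9%, 13.7 to 46.1), and those over 100 kb to 1 Mb away in 50 of 623 (8.03%, 6.14 to 10.4). For Avruch the counts were 10 of 39 (25.6%, 14.6 to 41.1) and 421 of 3840 (11.0%, 10.0 to 12.0). The median score percentile of those 26 Santa Cruz peaks was 38.7, and that of the 623 distant ones 44.2. Of the 21 Santa Cruz peaks over 1 Mb from any Avruch member, 4 overlapped TEAD1.

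**Figure D5:**
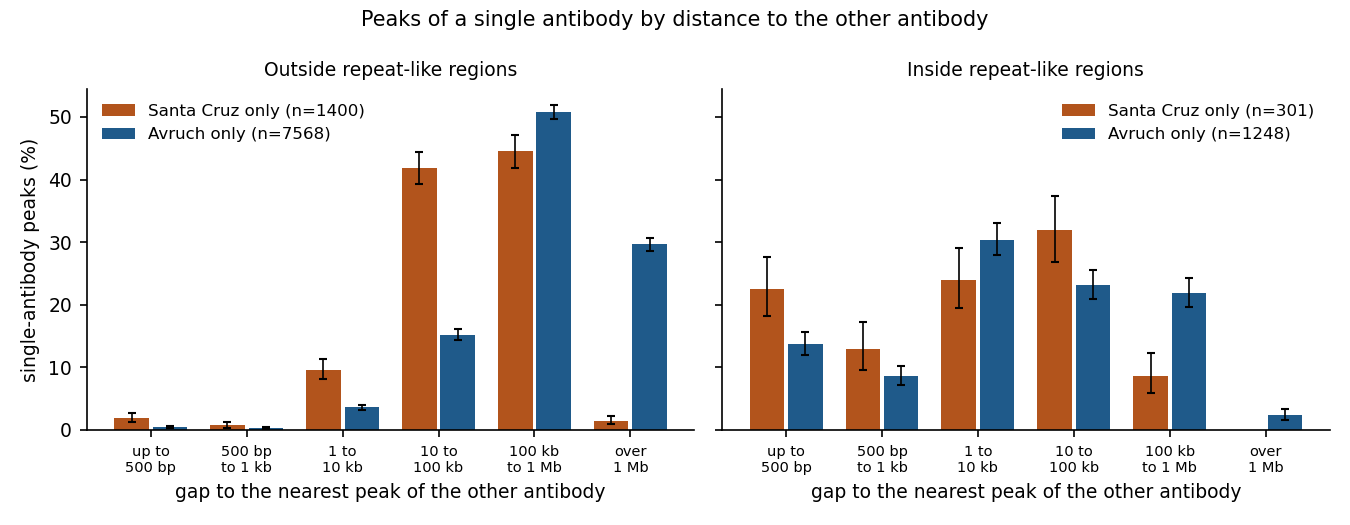
Percent of single-antibody peaks (y axis) by the gap to the nearest narrow peak of the other antibody (x axis, 6 classes), outside and inside repeat-like regions, with Wilson 95% intervals. Outside, most Santa Cruz peaks lie 10 kb to 1 Mb away and 29.6% of Avruch peaks over 1 Mb away, while inside, 22.6% of Santa Cruz and 13.7% of Avruch peaks lie within 500 bp.

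The 2 highest-scoring Avruch members had no counterpart with Santa Cruz. The peak that led the Avruch members, on chromosome 14 (62221974 to 62222285, score 480.26), lay 780427 bp from the nearest Santa Cruz member. It overlapped a TEAD1 peak with a score of 3100, a value that several other TEAD1 peaks carry as well. The next, on chromosome 1 (7174813 to 7175675, score 471.59), did not overlap TEAD1 and lay 867367 bp from the nearest Santa Cruz member. Further strong single Avruch peaks were on chromosome 4 (60384738 to 60385193, score 270.03), chromosome 5 (14347126 to 14347497, score 260.88) and chromosome 1 (3499841 to 3500327, score 244.98), each with TEAD1. Of the 10 highest-scoring single Avruch peaks outside repeat-like regions, 7 overlapped TEAD1, against 906 of all 7568 single Avruch peaks there.

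Single Santa Cruz peaks outside repeat-like regions did not reach such ranks. The highest, on chromosome 9 (116662938 to 116663185), scored 119.94 and ranked 45 of 2071, while the highest shared peak outside scored 281.96. Next came a peak on chromosome 6 (26855479 to 26855930, score 114.15), which lay 432 bp from an Avruch member, and one of 79 bp on chromosome 4 (136497847 to 136497925, score 109.15) without TEAD1. Of the 10 highest, 8 overlapped TEAD1, against 144 of all 1400 single Santa Cruz peaks outside repeat-like regions. In the Avruch list the order was the other way: the highest single peak outside, at 480.26, exceeded the highest shared one, at 214.87.

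Most narrow YAP peaks thus had neither the other antibody nor TEAD1 beside them. Outside repeat-like regions this held for 1256 of 1492 Santa Cruz members (84.2%) and 6662 of 7662 Avruch members (86.9%). Inside them it held for 149 of 579 (25.7%) and 769 of 1552 (49.5%).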

How the data were processed

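YAP and TEAD1 ChIP-seq was analysed from 3 deposited peak lists, 1 per library. Reads were aligned with Bowtie2 to hg19, per the submitters' processing notes, and peak names carry the caller name MACS, per the deposited lists. The sources used here do not give the caller's version and settings, the control library, read depth or duplicate handling. Each peak carries a score that the authors deposited without a unit, and it was used only within a list. Positions are printed 1-based.

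Overlaps, gaps and ranks were computed with Python 3.11.15, numpy 2.4.6, pandas 2.3.3 and scipy 1.17.1, and the overlap and distance functions were checked on simulated intervals. Percentile ranks were taken among the members of a list, ties by mean rank. Gaps are to members only. Shares have Wilson 95% intervals, medians binomial order-statistic ones. Peaks are not replicates, so no test was made.

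Named pairs were the 20 outside and 6 inside repeat-like regions with the highest mean percentile, and named single peaks the 10 highest scores per list outside. The densest loci were named after their counts were seen, by number of shared peaks. The members, lists and settings were chosen with earlier results of these data known. Planned gene lists and neighbouring genes were not analysed here, because the annotation at hand is of another build, and no sequence is printed for that reason. Variations of the settings were the overlap rule, list length, score limit, width limit and regions.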

Additional observations from a re-analysis of the deposited data

How the results depend on the processing

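No difference between shared and single peaks changed its sign under any of the 10 alternative settings. The shared portions are percentages and could not change sign. Of the 60 alternative values, 21 stayed within the counting interval of the reported value. No paired analysis was possible because each antibody has 1 library, and for the same reason no library could be left out. The shared portion moved under every setting. For Santa Cruz (17.9%) and Avruch (4.32%) it was, in that order, 12.4% and 2.79% where an overlap had to span 50% of each peak, 15.8% and 3.61% with windows of 200 bp, and 22.4% and 6.60% with gaps of up to 500 bp allowed. It was 21.8% and 5.15% in the higher-scoring 50% of each list, and 12.2% and 12.5% with the Avruch list cut to the length of the Santa Cruz list. It was 6.17% and 1.23% without repeat-like regions, and 4.85% and 0.972% without dense windows as well (200 kb with more than 5 peaks of a YAP list). It was 11.9% and 2.66% below 500 bp, 23.8% and 6.37% at any width, and 15.2% and 3.16% with members up to 1 kb apart joined, a setting chosen after seeing the data.

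The median percentile of shared minus single peaks, 34.6 for Santa Cruz, was 28.5 without repeat-like regions, 39.7 at any width and 39.0 after joining. With dense windows also left out it was 30.5, with an interval that included 0 (-1.69 to 37.9). For Avruch it was 40.8, and it was 38.0 with gaps allowed, 32.8 with lists of equal length, 37.5 without repeat-like regions, 36.5 without dense windows as well, 31.4 below 500 bp, 44.3 at any width and 45.8 after joining.

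The TEAD1 overlap of shared minus single peaks, 59.9 percentage points for Santa Cruz and 61.2 for Avruch, moved most with the overlap rule. It was 14.7 and 14.3 where an overlap had to span 50% of each peak, and 29.4 and 26.6 with windows of 200 bp. For Santa Cruz it was 52.9 in the higher-scoring 50% and 66.9 without repeat-like regions and dense windows. For Avruch it was 50.5 with lists of equal length, 56.1 without repeat-like regions and 65.1 without dense windows as well. TEAD1 peaks are wider than YAP peaks, so a YAP peak inside a wide TEAD1 peak fails the 50% rule by construction. Where a value moved for another reason, the cause was not tested.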

Other observations

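The next values were looked at after the main comparisons had been seen. Outside repeat-like regions, sites found with both antibodies lay near chromosome ends, as drawn from the peaks, more often than single sites. The end was taken as the outermost peak of any list on the chromosome. Where a chromosome arm holds no peaks, that place is not the physical end, and the counts are not split by this. Outside repeat-like regions, 20 of 92 shared Santa Cruz peaks (21.7%, 14.5 to 31.2) lay within 2 Mb of an end, against 135 of 1400 single ones (9.64%, 8.21 to 11.3). For Avruch the counts were 20 of 94 (21.3%, 14.2 to 30.6) and 446 of 7568 (5.89%, 5.38 to 6.45). Of the narrow autosomal TEAD1 peaks, 8.47% lay there. Inside repeat-like regions, 11.5% of shared and 23.9% of single Santa Cruz peaks lay near an end, and 10.2% and 15.5% for Avruch. Over all members the Santa Cruz shares were 14.1% (10.9 to 18.0) and 12.2% (10.7 to 13.8), whose intervals overlap, and the Avruch shares 12.8% (9.88 to 16.5) and 7.26% (6.74 to 7.82).

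Dense Santa Cruz windows always held Avruch peaks, while the reverse was not so. Of the 28 windows of 200 kb with more than 5 Santa Cruz members, 0 lacked an Avruch member. Of the 117 windows with more than 5 Avruch members, 28 held no Santa Cruz member. One of these, on chromosome 1 from 148200001 to 148400000, had 24 Avruch members and 12 TEAD1 peaks and lay outside repeat-like regions. Of all 5908 windows with a member, 843 held both lists, 4431 Avruch members only and 634 Santa Cruz members only. Most windows with Avruch members thus held no Santa Cruz member, and the dense ones lacked it less often. The lists differ in length, and these counts are not adjusted for it.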
